A study of Mus musculus with 6 samples.

Results

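The genes of the mitochondrial ribosome's proteins were read on whole-transcript mouse arrays as 57 genes of the 10366 that have a probe set with a single gene symbol. They were taken by symbol alone, as Mrpl or Mrps followed by a number and at most 1 letter, which gave 38 genes named for the large subunit (Mrpl) and 19 named for the small subunit (Mrps). A current mouse gene table (RefSeq, GRCm38.p6) holds 49 Mrpl and 29 Mrps symbols of this form, and the other 21 were not analysed here. These 57 genes have 61 probe sets, and for the 4 genes with more than 1 the probe set with the highest mean over the 6 arrays was read.

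The arrays measured total RNA of LKS-Slam cells, bone marrow cells sorted on stem cell surface markers and highly enriched for hematopoietic stem cells. Of the 6 arrays, 3 came from mice labelled Zeb2-KO (Zeb2 fl/fl with Mx1-Cre, genotype given as Zeb2Δ/ΔMx1-Cre) and 3 from C57Bl/6 WT mice. Mice of both groups received pIC, an inducer of interferon, at 6 weeks of age, and marrow was taken 8 weeks later at 14 weeks. Mx1-Cre is a recombinase driven by an interferon-responsive promoter, so it is not restricted to stem cells, and neither the removed stretch of Zeb2 nor whether a marrow sample was pooled from several mice is stated in the labels. The labels call the 3 arrays of a group biological replicates.

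Mitochondria carry their own ribosomes, which translate the few proteins encoded by mitochondrial DNA, all of them subunits of the respiratory chain and the ATP synthase. The ribosomal RNAs come from mitochondrial DNA, whereas every protein of this ribosome is encoded in the nucleus, made in the cytosol and imported. The small subunit binds the messenger RNA and decodes it, and the large subunit joins the amino acids and feeds the new chain towards the inner membrane. Blood stem cells are known for a low rate of protein synthesis and for relying little on respiration while quiescent. Some of these proteins descend from those of the bacterial ribosome, and the others, called mitochondria-specific here, have no counterpart in that ribosome.

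Because nuclear genes of mitochondrial proteins are known to share promoter elements, the start regions of these genes were examined for the letters of 3 of them. RefSeq start regions (GRCm38.p6, 250 bases before to 50 after the start) were matched for 52 of the 57 genes. The ETS element searched was CCGGAAG, bound by factors such as GABP (Gabpa with Gabpb1). The NRF1 core was TGCGCA, and the YY1 element was AAGATGGC, and all were read on both strands. The end of the ETS motif and the start of the YY1 motif can share the letters AAG, and such a run was counted for both. The ETS letters stood in 20 of 52 regions (38.5%), against 14.7% of the regions of all 8137 genes on the array that were matched and 9.12% of all 27025 regions in the table. The NRF1 letters stood in 16 regions (30.8%, against 12.4% and 8.06%), and the YY1 letters in 9 (17.3%, against 3.92% and 2.88%). At least 1 of the 3 was found in 33 regions (63.5%), against 27.0% of array genes and 17.9% of all. The share with the E-box CAGGTG, letters that Zeb factors are known to bind, was 17.3% of the members' regions, against 18.02% and 20.03%. By subunit, the ETS letters stood in 11 of 35 Mrpl and 9 of 17 Mrps regions, and the NRF1 letters in 10 and 6.

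Start regions of 5 genes are shown because they carry these letters and belong to genes whose values are given below, 4 with high values in the arrays labelled Zeb2-KO and Mrps12 as the small subunit gene with the largest negative difference. Each runs 5′ to 3′ from 250 bases before to 30 after the RefSeq start, and capitals mark the ETS, NRF1 and YY1 letters. Mrpl51 lies on chromosome 6 (chr6:125191950-125192229, plus strand), Mrpl18 on chromosome 17 (chr17:12916062-12916341, minus strand), Mrpl17 on chromosome 7 (chr7:105811058-105811337, minus strand), Mrpl49 on chromosome 19 (chr19:6057726-6058005, minus strand) and Mrps12 on chromosome 7 (chr7:28741792-28742071, minus strand).
Mrpl51: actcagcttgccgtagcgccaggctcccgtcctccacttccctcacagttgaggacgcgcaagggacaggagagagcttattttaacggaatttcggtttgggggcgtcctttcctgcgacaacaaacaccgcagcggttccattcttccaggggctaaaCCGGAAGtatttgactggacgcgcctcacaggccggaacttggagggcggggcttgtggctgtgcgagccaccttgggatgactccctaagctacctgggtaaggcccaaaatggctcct
Mrpl18: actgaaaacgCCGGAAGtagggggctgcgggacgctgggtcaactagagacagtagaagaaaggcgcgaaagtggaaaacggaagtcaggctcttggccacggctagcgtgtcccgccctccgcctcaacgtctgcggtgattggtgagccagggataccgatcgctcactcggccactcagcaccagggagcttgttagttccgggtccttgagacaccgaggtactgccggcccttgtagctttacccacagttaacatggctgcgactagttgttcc
Mrpl17: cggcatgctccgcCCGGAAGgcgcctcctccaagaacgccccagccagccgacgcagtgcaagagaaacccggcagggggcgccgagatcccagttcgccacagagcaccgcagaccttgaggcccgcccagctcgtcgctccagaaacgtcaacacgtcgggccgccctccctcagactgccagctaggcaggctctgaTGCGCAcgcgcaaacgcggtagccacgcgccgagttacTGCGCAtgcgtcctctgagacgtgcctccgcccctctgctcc
Mrpl49: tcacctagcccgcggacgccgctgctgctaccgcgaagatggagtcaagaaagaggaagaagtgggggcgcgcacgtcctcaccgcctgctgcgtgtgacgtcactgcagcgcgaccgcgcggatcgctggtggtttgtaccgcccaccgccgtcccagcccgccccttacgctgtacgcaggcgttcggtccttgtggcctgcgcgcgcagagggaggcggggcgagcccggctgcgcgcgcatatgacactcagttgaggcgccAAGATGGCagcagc
Mrps12: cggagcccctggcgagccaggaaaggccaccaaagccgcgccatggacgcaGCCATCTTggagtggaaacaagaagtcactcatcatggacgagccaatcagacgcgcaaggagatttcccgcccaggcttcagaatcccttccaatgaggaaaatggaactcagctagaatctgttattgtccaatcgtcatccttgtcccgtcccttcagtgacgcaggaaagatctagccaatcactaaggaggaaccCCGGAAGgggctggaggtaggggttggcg
Mrpl51 and Mrpl18 hold 1 ETS site each, Mrpl17 holds 1 ETS site and 2 NRF1 cores, and Mrpl49 holds the YY1 letters just after its start. Mrps12 holds 1 ETS and 1 YY1 site. A match is a description of the letters and not a measured binding site.

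Many of these genes also start close to a neighbour that is read the other way. Of the 52 genes with a start region, 17 (32.7%) have a gene on the other strand that starts within 500 bases upstream, against 14.0% of matched array genes and 10.1% of all regions. Mrps12 starts 147 bases from Sars2, the mitochondrial seryl-tRNA synthetase gene, and Mrpl46 starts 42 bases from Mrps11, a gene of the small subunit. Mrpl18 starts 238 bases from Tcp1, a subunit gene of the cytosolic chaperonin. In 7 of the 17 pairs the partner was also read on the array, and in 4 of these 7 both genes had a difference of the same sign. Tcp1 had a difference of 0.89 beside 1.33 for Mrpl18 (log2, limma adjusted p = 0.673 and 0.622). These neighbours were named after their values were seen.

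Some features of the arrays bear on every value below. Values are log2 of the deposited intensity, and a difference is the mean of the arrays labelled Zeb2-KO minus that of WT, tested with limma over 14610 probe sets with Benjamini-Hochberg adjustment. First, Zeb2 itself was higher in the arrays labelled Zeb2-KO, at 7.79, 9.13 and 8.96, against 6.58, 7.51 and 7.34 in WT (difference 1.48, adjusted p = 0.581), so directions below rest on the labels alone. Second, the spread of values within an array, as its interquartile range, was 1.83, 2.40 and 2.11 in Zeb2-KO replicates 1 to 3, against 1.59, 2.03 and 1.77 in WT replicates 1 to 3. Finally, WT replicate 1 correlated least with the other arrays (mean correlation 0.841, against 0.886 to 0.908 for the rest), and in it Slamf1, the gene of the SLAM antigen CD150, was at 5.76 against 7.94 to 9.01 elsewhere.

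Genes of the mitochondrial ribosome lay higher in the arrays labelled Zeb2-KO in 45 of 57 cases, and none of the 57 passed the test (0 at an adjusted p of 0.05, 8 at an unadjusted p of 0.05, all 8 higher). The share of probe sets past the adjusted threshold over the whole table was 0.0137%. With array weights 5 of the 57 passed (8.77%), where 6.69% of all probe sets did, from weights whose estimate did not converge and which put 8.22 on Zeb2-KO replicate 3. With the subunit taken from the symbol, large subunit genes lay higher in 33 of 38 cases with a median difference of 0.24. Small subunit genes did in 12 of 19 cases with a median of 0.26. Over all tested probe sets 44.6% lay higher and 55.4% lower, and the median was -0.089. Most of these genes are brighter than the average probe set, with 47 of 57 at or above the median level of 6.63. Among all tested probe sets at or above that level 63.5% lay higher, with a median of 0.18, so the share of small subunit genes that lay higher (63.2%) was close to that background and that of large subunit genes (86.8%) was above it.

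**Figure D1:**
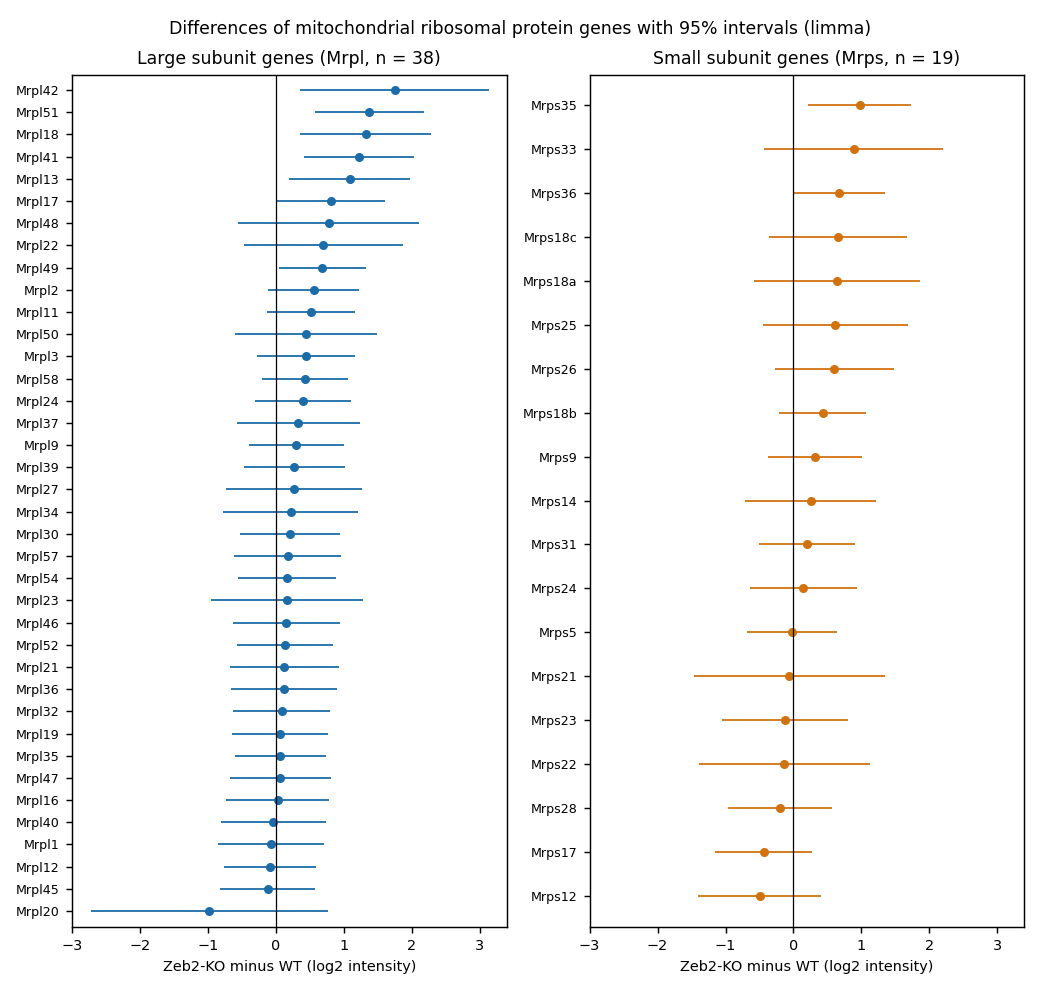
Difference of each of the 57 genes in log2 intensity, Zeb2-KO minus WT, with its 95% interval from limma (3 arrays per group), large subunit genes on the left and small subunit genes on the right. The points run from -0.98 (Mrpl20) to 1.75 (Mrpl42), and in 8 genes, all with a positive difference, the interval lies above 0.

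The unadjusted count of 8 higher genes is 14.0% of the 57, against 5.69% of all tested probe sets and 8.69% of those at or above the median level. No gene of either subunit lay lower at an unadjusted p of 0.05, where 1.33% of all tested probe sets did (118 of the 7305 brighter ones). In 7 genes every array labelled Zeb2-KO was above every WT array (12.3%, against 6.9% of all probe sets and 10.4% of the brighter ones), namely Mrpl51, Mrpl41, Mrpl49, Mrpl17, Mrpl58, Mrps35 and Mrps36. In no gene was every Zeb2-KO array below every WT array, where the share over all probe sets was 6.26% (257 of the 7305 brighter ones). A difference of at least 1.5-fold was seen in 16 genes that lay higher (28.1%, against 12.9% of all probe sets and 19.1% of the brighter ones). It was seen in 1 that lay lower (1.75%, against 3.68% and 3.96%), Mrpl20, whose difference was positive without WT replicate 1.

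**Figure D2:**
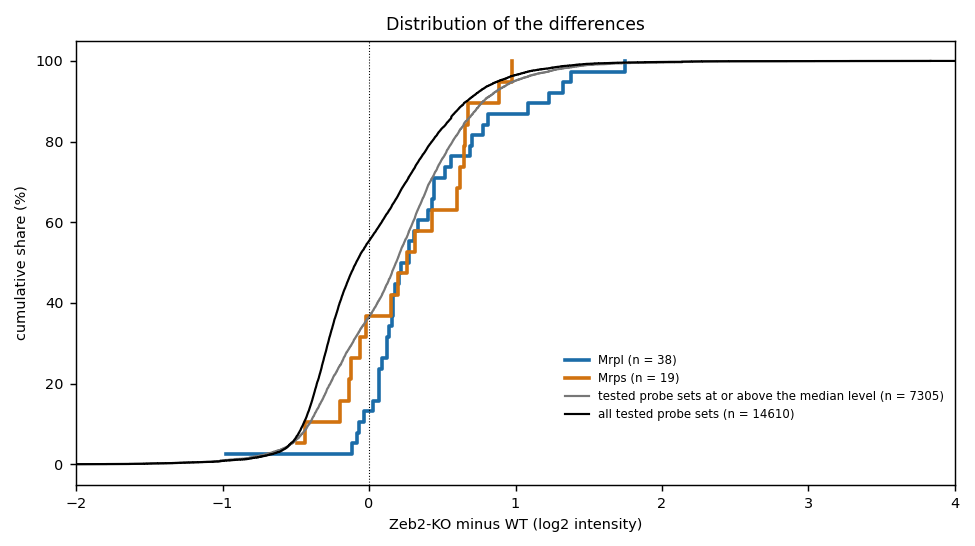
Cumulative share, in percent, of genes or probe sets against their difference in log2 intensity, Zeb2-KO minus WT. At 0 the Mrps curve meets that of the probe sets at or above the median level (36.8% of Mrps genes lay lower), while 13.2% of Mrpl genes lay lower; further up the Mrpl and Mrps curves cross, with medians of 0.24 and 0.26.

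The genes of the large subunit with the smallest p were Mrpl51, Mrpl41, Mrpl18, Mrpl42, Mrpl13 and Mrpl49. Mrpl51, a protein of the large subunit with no bacterial counterpart, had 8.56, 9.39 and 9.75 in the arrays labelled Zeb2-KO, against 7.59, 8.31 and 7.65 in WT. The groups did not overlap, and the difference was 1.38 (SE 0.36, 2.60-fold, adjusted p = 0.563). Mrpl41, another mitochondria-specific protein, had 8.60, 8.64 and 7.95 in Zeb2-KO arrays, against 7.34, 7.69 and 6.48 in WT. Here too all Zeb2-KO arrays were above all WT arrays, with a difference of 1.23 (SE 0.37, adjusted p = 0.606).

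Mrpl18 belongs to the central protuberance, a projection of the large subunit. It had 8.47, 8.77 and 7.61 in Zeb2-KO arrays, against 7.18, 7.62 and 6.08 in WT. The lowest Zeb2-KO array stood just below the highest WT array, and the difference was 1.33 (SE 0.44, adjusted p = 0.622). Mrpl42, a mitochondria-specific protein, had 8.92, 9.94 and 9.73 in Zeb2-KO arrays, against 6.13, 9.19 and 8.02 in WT. Its difference of 1.75 (SE 0.63, adjusted p = 0.657) had the largest size among the 57 genes and was 0.92 without WT replicate 1, the array with the low value.

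Mrpl13, the counterpart of a bacterial large subunit protein, had 6.84, 8.21 and 7.88 in Zeb2-KO arrays, against 6.20, 7.15 and 6.32 in WT. Zeb2-KO replicate 1 lay within the WT range, and the difference was 1.09 (SE 0.40, adjusted p = 0.662). Mrpl49 had 7.75, 8.09 and 7.57 in Zeb2-KO arrays, against 6.87, 7.10 and 7.38 in WT, a difference of 0.69 (SE 0.29, adjusted p = 0.673) without overlap. Mrpl17, placed here with the proteins around the exit tunnel and named after its values were seen, had 6.85, 8.06 and 7.10 in Zeb2-KO arrays. In WT it had 6.19, 6.85 and 6.54. Its groups met without overlapping, and its difference of 0.81 (adjusted p = 0.673) was 0.45 without Zeb2-KO replicate 2.

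**Figure D3:**
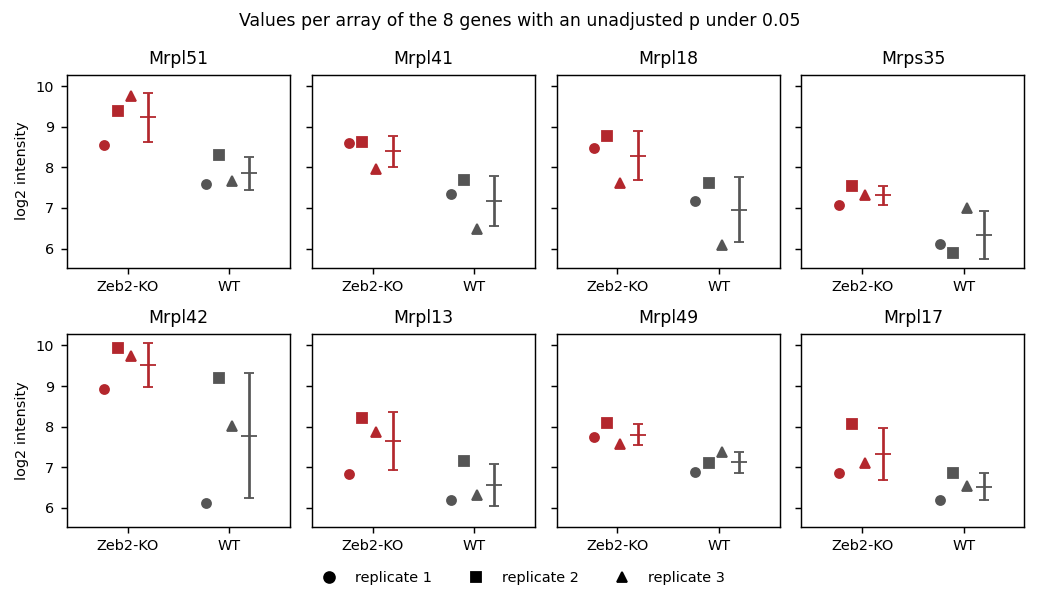
Log2 intensity per array of the 8 genes with an unadjusted p under 0.05, with Zeb2-KO left of WT in each panel, a symbol per replicate number, and mean and SD beside the points (n = 3). The groups are apart in Mrpl51, Mrpl41, Mrps35, Mrpl49 and Mrpl17 and overlap in Mrpl18, Mrpl42 and Mrpl13, where WT replicate 1 of Mrpl42 stands lowest at 6.13.

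Other parts of the large subunit are described by the place of their proteins in the ribosome. At the peptidyl transferase centre, where the peptide bond is made, Mrpl2 (0.56), Mrpl3 (0.44), Mrpl27 (0.27) and Mrpl16 (0.027) all had positive differences, none past the test. Mrpl3, mutated in a human mitochondrial disease, had 7.38, 8.24 and 7.88 in Zeb2-KO arrays, against 7.78, 7.12 and 7.27 in WT, and the groups overlapped. In the stalk that recruits the translation factors, Mrpl11 had a difference of 0.52 and Mrpl12 of -0.084, and Mrpl12 stood at 7.93 ± 0.27 in Zeb2-KO arrays and 8.01 ± 0.38 in WT (SD, n = 3). Around the exit tunnel 4 of 5 genes lay higher, with Mrpl22 at 0.70, Mrpl24 at 0.40 and Mrpl23 at 0.16 beside Mrpl17, while Mrpl45, which anchors the ribosome at the inner membrane, was at -0.12. Mrpl22 was at 0.087 without WT replicate 3 and at 1.36 without WT replicate 2. In the central protuberance 5 of 6 lay higher, among them Mrpl48 (0.78), Mrpl58 (0.43) and Mrpl46 (0.16), with Mrpl40 at -0.035. Mrpl48 ran from 0.34 to 1.63 as single arrays were left out. Mrpl58, a peptidyl-tRNA hydrolase built into the large subunit, did not overlap between groups (7.16 to 7.64 in Zeb2-KO arrays, against 6.71 to 7.11 in WT).

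Only 5 large subunit genes had a negative difference, Mrpl20, Mrpl45, Mrpl12, Mrpl1 and Mrpl40. Mrpl20 had 5.70, 6.06 and 6.03 in Zeb2-KO arrays, against 9.34, 5.45 and 5.93 in WT. WT replicate 1 alone stood high, and the difference of -0.98 (SE 0.79, adjusted p = 0.673) was 0.24 without it. Mrpl1 was at -0.070, and the adjusted p of these 5 genes ran from 0.673 upward. Of the remaining genes named for their level, Mrpl39 and Mrpl24 were among the brightest probe sets (means of 9.23 and 8.79) and had differences of 0.27 and 0.40. Mrpl47, Mrpl36 and Mrpl22 were the dimmest (5.005, 5.20 and 5.74), with differences of 0.066, 0.12 and 0.70, and levels of different probe sets say nothing of the order of the genes themselves.

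Among small subunit genes Mrps35 had the smallest p. Mrps35, a mitochondria-specific protein, had 7.08, 7.55 and 7.31 in Zeb2-KO arrays, against 6.12, 5.89 and 7.003 in WT. The groups did not overlap, with a difference of 0.98 (SE 0.34, 1.97-fold, adjusted p = 0.656). Mrps36 had 5.16, 5.95 and 5.86 in Zeb2-KO arrays, against 4.88, 5.15 and 4.91 in WT. It is among the dimmest of these probe sets, and its groups did not overlap, with 5.16 and 5.15 as the closest arrays. The difference was 0.67 (SE 0.31, adjusted p = 0.673). Despite its symbol, the protein of Mrps36 is now known as a component of the 2-oxoglutarate dehydrogenase complex and not of the ribosome.

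The other small subunit genes with positive differences overlapped between groups. Mrps33 was at 0.89, Mrps18c at 0.65, Mrps26 at 0.60 and Mrps18b at 0.43, with adjusted p of 0.673 in each. The 3 paralogs of the bacterial protein S18 lay on the same side, with Mrps18a at 0.65, and Mrps18a, whose protein is known to sit in the large subunit, had 6.06, 8.01 and 8.30 in Zeb2-KO arrays, against 7.24, 6.04 and 7.15 in WT. Zeb2-KO replicate 1 and WT replicate 2 stood low, and the groups overlapped. Mrps33 was at 0.19 and Mrps25 (0.62) at -0.027 without WT replicate 1, in which both were lowest at 6.56 and 5.60. Without WT replicate 3 Mrps18c was at 0.23 and Mrps26 at 0.19, and Mrps18a was at 0.22 without Zeb2-KO replicate 3 and at 1.34 without Zeb2-KO replicate 1.

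Negative differences were found in 7 small subunit genes. Mrps12, the counterpart of the bacterial protein S12 at the decoding centre, had 7.91, 8.92 and 7.58 in Zeb2-KO arrays, against 9.08, 8.83 and 7.98 in WT. The groups overlapped, and the difference was -0.49 (SE 0.41, adjusted p = 0.673), with -0.88 to -0.22 as single arrays were left out. Mrps17 was at -0.44, Mrps28 at -0.20, Mrps22 at -0.13, Mrps23 at -0.13, Mrps21 at -0.062 and Mrps5 at -0.020, none past the test. Mrps22, also mutated in a human mitochondrial disease, ran from 5.96 to 8.01 in Zeb2-KO arrays and from 6.29 to 8.30 in WT. Mrps31 (0.20) was, with Mrps36 and Mrps17, among the 3 dimmest small subunit probe sets, and Mrps18c, Mrps33 and Mrps12 were the brightest.

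Proteins with no counterpart in the bacterial ribosome (mitochondria-specific) and those with one were set side by side, with Mrps36 in neither class. The 23 mitochondria-specific genes had a median difference of 0.33, with 19 higher and 5 at an unadjusted p of 0.05. The 33 genes with a bacterial counterpart had a median of 0.20, with 25 higher and 3 at that p. Groups did not overlap, with Zeb2-KO higher, in 5 of the 23 and in 1 of the 33. Over all probe sets at or above the median level 10.4% did not overlap in this direction and 8.69% were higher at that p, and over all tested probe sets 6.9% and 5.69%. Probe sets standing on the array among genes of another chromosome (described below) are not spread evenly over the classes. The mitochondria-specific class holds Mrpl51 (1.38), Mrpl41 (1.23), Mrps33 (0.89) and Mrpl48 (0.78), and the other class Mrpl27 (0.27). Mrpl51 and Mrpl41 are among the 5 at that p and the 5 without overlap. The classes were not compared without these genes, and the difference between the classes was not tested. Regions with the ETS letters belonged to genes with a median difference of 0.43 and those without to genes with 0.20, whereas for the NRF1 letters the medians were 0.24 with and 0.26 without and for the YY1 letters 0.15 with and 0.27 without. The gap was wider for the letters CCAAT, a general promoter element, at 0.44 with and 0.17 without, and none of these gaps was tested.

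The level of these genes also differed between arrays of 1 group. Mean log2 values of the 38 Mrpl genes were 7.22, 7.80 and 7.32 in Zeb2-KO replicates 1 to 3, against 7.04, 7.32 and 6.85 in WT replicates 1 to 3. Those of the 19 Mrps genes were 7.08, 7.95 and 7.58 in Zeb2-KO arrays, against 6.97, 7.48 and 7.39 in WT. Zeb2-KO replicate 2 was the highest of all 6 arrays in 30 of 57 genes and the lowest in 0, and it is also the array with the widest spread. Among all probe sets at or above the median level it was highest in 34.9%. WT replicate 1 was the lowest array in 20 of the 57 genes, close to its share of 35.2% among those brighter probe sets, and WT replicate 3 in 17, where that share was 19.5%.

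**Figure D4:**
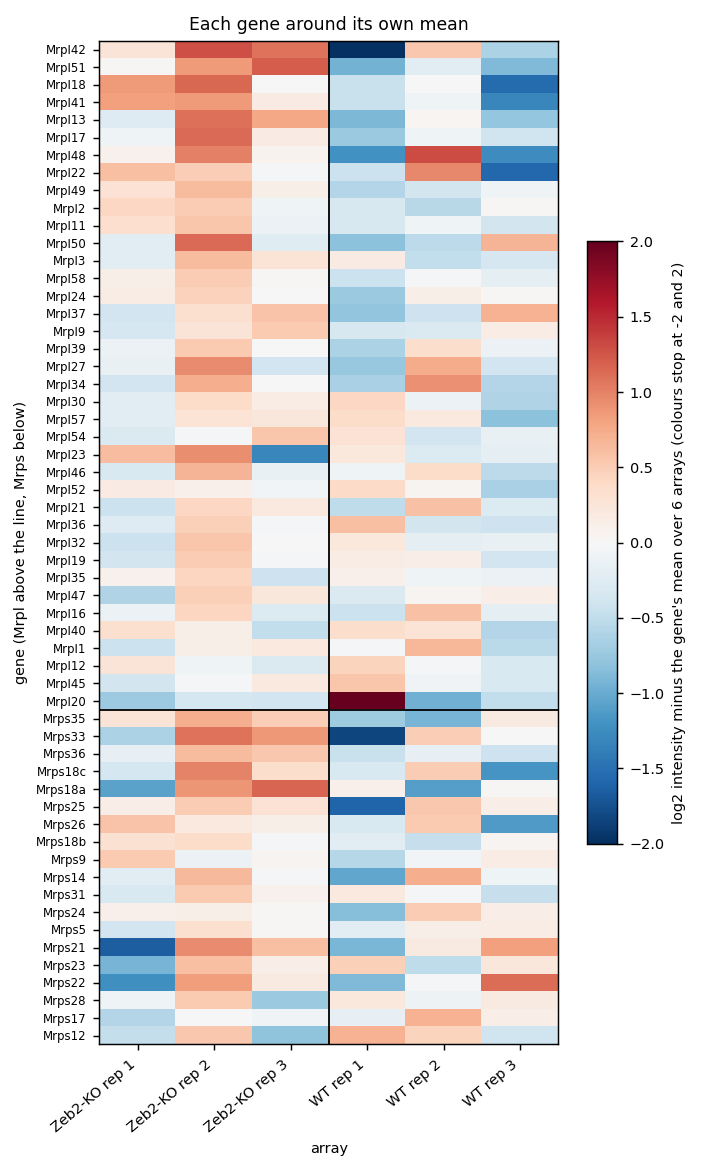
Log2 intensity of each gene around its own mean over the 6 arrays, with the Zeb2-KO arrays on the left, the WT arrays on the right, Mrpl genes above and Mrps genes below the line, each sorted by difference. Zeb2-KO replicate 2 is red in most rows, WT replicates 1 and 3 are blue in many, and Mrpl20 in WT replicate 1 lies beyond the colour scale.

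The large and small subunit were compared within each array, which removes what an array does to both. The Mrpl mean minus the Mrps mean was 0.14, -0.16 and -0.26 in Zeb2-KO arrays, against 0.077, -0.16 and -0.54 in WT arrays. The groups overlapped, and their means differed by 0.12 with an SD of 0.20 in Zeb2-KO arrays and 0.31 in WT arrays (n = 3), so the balance of the subunits did not differ beyond the spread between arrays. The medians of the differences were 0.24 and 0.26, which is -0.012 apart. These sets follow the gene symbols. The Mrps set therefore holds Mrps36 (0.67), not a protein of the ribosome, and Mrps18a (0.65), whose protein sits in the large subunit. Both lie above the Mrps median, and the subunits were not compared with these genes moved or left out. When the fit included array spread (the interquartile range) as a covariate, the Mrpl median was 0.087 and the Mrps median -0.22, with 29 of 57 genes higher and 2 at an unadjusted p of 0.05.

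Single arrays also moved these summaries. Without Zeb2-KO replicate 2 the medians were 0.082 (Mrpl) and 0.13 (Mrps), 31 of 57 genes lay higher and 2 were at an unadjusted p of 0.05. Without Zeb2-KO replicate 1 the medians were 0.40 and 0.44, and 50 genes lay higher. The Mrps median was 0.082 without WT replicate 1, with 5 genes at that p, and the Mrpl median was 0.14 without WT replicate 3. Quantile normalization, which gives all arrays 1 distribution, left 36 genes higher with medians of 0.16 and 0.13, beside -0.075 over all probe sets.

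**Figure D5:**
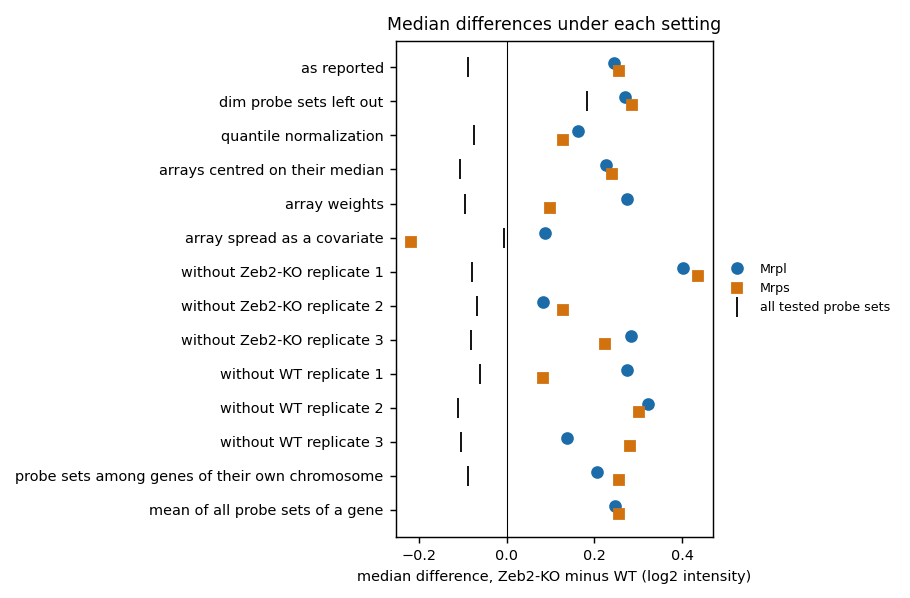
Median difference in log2 intensity, Zeb2-KO minus WT, of Mrpl genes, Mrps genes and all tested probe sets under each setting, with no bar for all probe sets where probe sets were averaged per gene. Both medians stay above 0 in every setting drawn except that with the array spread as a covariate, where the Mrps median is -0.22.

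The place of a probe set on the array gives a further check of what it reads. Identifiers on this array run in the order of the genome, since 95.8% of single-symbol probe sets stand among genes of their own chromosome (the most frequent chromosome of the 10 annotated neighbours on each side). Of the 61 probe sets of these genes, 7 (11.5%) stand among genes of another chromosome, against 4.24% of all. For 5 genes that was the probe set read here. Mrpl51 lies on chromosome 6, and all 20 neighbours of its probe set (10475360) lie on chromosome 2. Mrpl41 lies on chromosome 2, and 19 of 20 neighbours of its probe set (10561140) lie on chromosome 7. The same holds for the probe sets read for Mrpl48, Mrpl27 and Mrps33. Whether these probe sets read the named gene or a similar sequence elsewhere was not tested, so the values of Mrpl51 and Mrpl41, the genes with the smallest p, are uncertain as to their source.

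Where a gene had a probe set in each place, both could be compared. The probe sets of Mrpl23 differed by at most 0.075 in any array and had differences of 0.16 and 0.18. Those of Mrps36 had 0.67 in the probe set among its own neighbours and 0.68 in the other. For Mrps33 the values were 0.61 and 0.89 in that order, and for Mrpl27 they were 0.45 and 0.27. When only probe sets among genes of the gene's own chromosome were read, a setting chosen after seeing the data, 54 genes were left, 42 lay higher, 6 were at an unadjusted p of 0.05, and the medians were 0.20 (Mrpl) and 0.26 (Mrps).

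Other genes of mitochondrial translation were read from 6 lists of 88 symbols, of which 59 were measured. None passed the test, and 6 were higher and 0 lower at an unadjusted p of 0.05 (where 5.69% of all probe sets were higher). In all, 36 of 59 lay higher (61.0%) with a median of 0.11, against 44.6% and -0.089 over all probe sets. Of the 59, 36 were at or above the median level, where 63.5% of all tested probe sets lay higher with a median of 0.18. The share and median of these lists were thus not above those of the brighter probe sets. The median of the 59 was -0.032 with 28 of them higher without Zeb2-KO replicate 2, and 0.011 with quantile normalization. Ribosomal proteins under other symbols included Ptcd3, a pentatricopeptide protein of the small subunit, with 7.95, 7.98 and 7.96 in Zeb2-KO arrays, against 7.24, 7.12 and 6.504 in WT. Its groups were apart, with a difference of 1.01 (SE 0.30, adjusted p = 0.606), and Chchd1, the other measured gene of that list, was at 0.16. Dap3 was not analysed here.

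Translation factors lay higher in 10 of 11 cases, with a median of 0.42. Mrrf, the factor that recycles ribosomes, had 7.34, 7.87 and 7.82 in Zeb2-KO arrays, against 6.29, 7.64 and 5.64 in WT, a difference of 1.15 (adjusted p = 0.662) that was 0.71 without WT replicate 3. Its highest WT array lay inside the Zeb2-KO range. The initiation factor gene Mtif2 was at 0.72 and Gfm2, a recycling factor, at 0.63. Of the genes of mitochondrial DNA expression 10 of 14 lay higher (median 0.38), led by Hsd17b10, part of the mitochondrial ribonuclease P, at 1.64 (0.66 with the array spread as a covariate), Polg2, the accessory subunit of the DNA polymerase, at 0.94, and the transcription factor gene Tfb2m at 0.62.

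Of the assembly and RNA modification factors 6 of 15 lay higher (median -0.024), and Nsun4 (-0.39), Noa1 (0.38) and Rbfa (0.27) had the smallest p. Of the mitochondrial tRNA synthetases 4 of 9 did (median -0.0055), and Yars2 was at 0.59, Aars2 at -0.29 and Nars2 at -0.27. Nuclear regulators of mitochondrial genes had a median of 0.011. Among them Gabpa, whose product binds the ETS element, had 8.62, 8.93 and 9.18 in Zeb2-KO arrays, against 7.47, 8.48 and 8.38 in WT, a difference of 0.80 (adjusted p = 0.673) without overlap. Without WT replicate 1 Gabpa was at 0.48. Yy1 was at 0.93 and Myc at 0.46, and without WT replicate 1 they were at 0.22 and 0.0054. Of 36 measured genes of cytosolic ribosomal proteins 28 lay higher (median 0.17), as did 23 of 30 subunit genes of respiratory complex I (median 0.37), beside 45 of 57 (median 0.26) for the mitochondrial ribosome. These differences between lists were not tested.

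Markers of other cells that a marrow sort could hold are given beside these values. For each list the summed intensity of its measured genes is given as the range over 3 arrays. Proliferation genes (14 of 15 measured) summed to 5864 to 8896 in Zeb2-KO arrays, against 3136 to 6657 in WT, and all 14 lay higher. Megakaryocyte and platelet genes (6 of 8) summed to 2669 to 4981 in Zeb2-KO arrays, against 717 to 1593 in WT, and erythroid genes (5 of 8) to 2978 to 3391 in Zeb2-KO arrays, against 917 to 1350 in WT. Both these sums were apart between groups. All 5 erythroid genes lay higher, and Car2 was the brightest of them and weighs most in their sum. It stood at 11.34, 11.22 and 11.08 in Zeb2-KO arrays, against 8.63, 9.94 and 9.91 in WT. The erythroid sum was not taken without Car2. Car1 stood at 5.47 in Zeb2-KO replicate 1, below the 5.77 to 7.44 of the WT arrays. B lymphoid genes (11 of 12) summed to 1017 to 2135 in Zeb2-KO arrays, against 1908 to 3824 in WT, and monocyte and dendritic cell genes (10 of 11) to 2342 to 3319 in Zeb2-KO arrays, against 3041 to 4776 in WT. All 11 of these B lymphoid genes and 9 of the 10 others lay lower. Granulocyte genes (4 of 8) summed to 391 to 1373 in Zeb2-KO arrays, against 294 to 351 in WT, also apart, with 2 genes higher and 2 lower. Among them S100a9 stood at 10.16 in Zeb2-KO replicate 1, against 6.42 to 7.57 in the other arrays. T and NK genes (5 of 6) summed to 432 to 690 in Zeb2-KO arrays, against 393 to 1099 in WT.

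Genes of the stem cell list (8 of 9 measured) summed to 2442 to 3067 in Zeb2-KO arrays, against 1935 to 3383 in WT. Flt3 was the 1 gene among them below the median level. Of the 8, 3 lay higher and 5 lower, none past the test. The list holds Cd48, a surface antigen known to be low on stem cells, and Mecom and Hlf, which encode transcription factors. Its sum and its count of directions are therefore no measure of the sort gate. Every Zeb2-KO array was above every WT array in Slamf1 (1.30) and Kit (0.53), where 6.9% of all probe sets were. Every Zeb2-KO array was below every WT array in Cd48 (-1.02) and Procr (-0.45), where 6.26% of all probe sets were. No marker was at 0, since every probe set has an intensity, and below the median level were Ebf1 and Blnk, Ly86, Irf8 and Itgax, Elane and S100a8, Klf1, and Cd3e, Cd3g and Klrb1c. The part of these cells in the values of the mitochondrial ribosome genes was not tested. In RNA of a sorted mixture, fewer cells of a type and less RNA per cell cannot be told apart.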

How the data were processed

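Amplified, biotin-labelled RNA of sorted LKS-Slam cells was read on arrays, per the labels' protocols, with 3 arrays in each group taken from the titles. For each array the authors deposited an intensity per probe set, made with RMA (background correction, normalization and summary of probes) per the submitters' processing notes. The RMA version is not stated. Deposited values are linear, and log2 was taken. Of 20220 probe sets, 5610 with identifiers below the first annotated one were left out and 14610 were tested with limma 3.58.1 in R 4.3.3 (lmFit, eBayes, 4 residual and 6.87 prior degrees of freedom, Benjamini-Hochberg over all tested probe sets, threshold 0.05). Genes come from the platform annotation, 11229 probe sets carry 1 symbol, and 11184 of these were found in the RefSeq table. The members and lists were chosen with earlier results of these data known. Named genes are, per subunit, the 6 with positive and the 6 with negative differences of smallest p, the 3 brightest and 3 dimmest, fixed genes, and up to 3 of each pathway list. Others were named for their place in the ribosome after their values were seen. The procedure was tested on simulated data with independent noise of equal spread in all arrays. That test does not cover differences in spread between arrays or correlations between them. Arrays give no read depth, and their number limits the precision. P-values set the difference between groups against the spread between these arrays, as moderated by limma over all tested probe sets. Alternatives covered dim probe sets, normalization, centring, variance priors, array weights, the array spread as a covariate, the replicate block, the probe set read and each array left out.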

Additional observations from a re-analysis of the deposited data

How the results depend on the processing

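None of the 57 genes passed the adjusted threshold except with array weights, where 5 did (Mrpl13, Mrpl41, Mrpl42, Mrpl51 and Mrps36), together with 8 of the other mitochondrial translation genes and 978 probe sets over the table, against 2 in the fit as reported. The estimate of these weights stopped before it converged and gave Zeb2-KO replicate 3 a weight of 8.22, against 0.38 to 1.89 for the other arrays. With array weights 16 members were at an unadjusted p of 0.05 (28.1%), fewer than the 32.8% of all probe sets. The table's count was 1 without dim probe sets, 1 with the array spread as a covariate, 0 with the replicate block, and 2 to 18 with 1 array left out. The array spread as a covariate gave the Mrps median as -0.22, the Mrpl median minus the Mrps median as 0.31, 29 members higher and 2 at an unadjusted p of 0.05 (3.51%, against 5.13% of all probe sets), and the cause was not tested. Leaving out 1 array put 2 to 10 members at that p, fewest without Zeb2-KO replicate 2 (3.51%, against 3.68% of all probe sets), with 5 without WT replicate 1. The labels do not state whether replicate numbers pair the samples. Correlations of same-numbered arrays' deviations from their group means were 0.36, 0.41 and 0.047, and each array correlated best with its own number. Zeb2-KO replicate 2 with WT replicate 1 gave -0.38, and Zeb2-KO replicate 1 with WT replicate 2 gave -0.37. Whether same-numbered arrays share a batch was not tested. The replicate block left every difference as it was, put 12 members at an unadjusted p of 0.05 (21.1%, against 17.8% of all probe sets) and 0 past the adjusted threshold. Signs turned with array spread as a covariate for Mrpl12 (0.15), Mrpl16 (-0.45), Mrpl27 (-0.54), Mrpl39 (-0.22), Mrpl40 (0.023), Mrpl46 (-0.34), Mrpl47 (-0.40), Mrpl48 (-0.28), Mrps18c (-0.082), Mrps25 (-0.074), Mrps31 (-0.059), Mrps33 (-0.33), Chchd1 (-0.24) and Myc (-0.27). Signs turned with array weights for Mrpl1 (0.39), Mrpl16 (-0.13), Mrpl23 (-0.93), Mrpl27 (-0.058), Mrpl45 (0.28), Mrps21 (0.11), Chchd1 (-0.43), Noa1 (-0.21) and Rbfa (-0.25). Signs turned with quantile normalization for Mrpl16 (-0.14), Mrpl23 (-0.046) and Mrpl46 (-0.043). With 1 array left out, the sign turned at least once for Chchd1 (-0.46 to 0.58), Mrpl1 (-0.35 to 0.24), Mrpl12 (-0.25 to 0.12), Mrpl16 (-0.18 to 0.32), Mrpl20 (-1.71 to 0.24), Mrpl23 (-0.26 to 0.86), Mrpl27 (-0.13 to 0.71), Mrpl36 (-0.083 to 0.46), Mrpl40 (-0.33 to 0.20), Mrpl45 (-0.30 to 0.12), Mrpl46 (-0.15 to 0.38), Mrpl47 (-0.15 to 0.39), Mrps21 (-0.55 to 0.75), Mrps22 (-0.61 to 0.44), Mrps23 (-0.46 to 0.31), Mrps25 (-0.027 to 1.04), Mrps28 (-0.51 to 0.12), Mrps31 (-0.019 to 0.40) and Mrps5 (-0.19 to 0.17). The cause of these turns was not tested. Zeb2 passed with array weights (1.67, adjusted p = 0.0181).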
